A study of Homo sapiens with 24 samples.

Results

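The kinesin superfamily was examined in 4 human cancer cell lines treated with Ocoxin, a nutritional supplement made of plant extracts such as green tea with added vitamins, minerals and amino acids. Its members were the protein-coding genes whose symbol is KIF or KIFC followed by a number and at most 1 letter from A to C. This rule, which uses no measured value, gave 42 of the 58051 genes counted, of which 19629 are protein-coding. The members and the gene lists were nonetheless chosen with earlier results of these data known. By their known roles 14 were placed among the mitotic kinesins, 15 among the transport kinesins and 13 among the others, which act in cilia or on microtubule ends or have a less settled role.

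The study compared Ocoxin with control by sequencing polyA RNA from adhered cells after 48 h, with 3 control and 3 Ocoxin libraries per cell line and 24 libraries in all. The lines were SW620 for colorectal adenocarcinoma (COAD), BxPC-3 for pancreatic adenocarcinoma (PAAD), LNCaP for prostate adenocarcinoma (PRAD) and HCC-70 for triple negative breast cancer (TNBC). The dilution of Ocoxin was 50-fold in PRAD, 500-fold in PAAD and 700-fold in the other 2 lines, in RPMI medium with 1% fetal bovine serum, so that only COAD and TNBC shared a dilution. The labels attach the same dilution to the controls and do not say what the controls received. Each tumor type is represented by 1 established line, and no label says whether the libraries of a group came from separate cultures, so p-values measure the spread between these libraries, which may be technical.

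Kinesins are motor proteins that turn the energy of ATP into steps along microtubules. Mitotic kinesins build the spindle, align chromosomes and complete cytokinesis, and their transcripts peak late in the cell cycle, whereas transport kinesins carry vesicles, organelles and other cargo in cells at every stage. Several mitotic kinesins are drug targets in oncology because dividing cells depend on them.

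Total counts ranged from 25160757 to 39009959 per library in COAD, PAAD and TNBC and from 9063968 to 9520969 in PRAD. PRAD was counted read by read in a separate table while a fragment mostly gave 2 counts in the other lines, so levels in PRAD are not set against the others. In COAD the Ocoxin libraries were shallower than the controls, with at most 29670036 against at least 31265452 counts, and the part of depth in the COAD results was not tested. The control libraries held markers of their lines. Examples were VIL1 in SW620 (526 counts per 1000000, CPM), KRT7 in BxPC-3 (1050 CPM), KLK3 in LNCaP (403 CPM) and KRT6B in HCC-70 (361 CPM). Many were shared between lines. KRT5, KRT17 and EGFR were higher in BxPC-3 (3130, 2340 and 596 CPM) than in HCC-70 (1600, 262 and 500 CPM). KRT7 also had 672 CPM in HCC-70. Of the other duct markers, only GATA6 was highest in BxPC-3 (39.1 CPM) among COAD, PAAD and TNBC. KRT19 and MUC1 were higher in HCC-70 (1530 and 311 against 1290 and 88.1 CPM) and ITGB4 in SW620 (581 against 569 CPM). SOX9 had 23 CPM in BxPC-3, 212 CPM in SW620 and 166 CPM in HCC-70. Of the colon markers, CDX1 and LGALS4 were near 0 in SW620 (0.0104 and 0.673 CPM), and of the hormone receptors, ESR1 stood at 6.85 CPM in HCC-70 and PGR at 0. Of 3 leukocyte markers, PTPRC and CD68 had group means of at most 0.107 and 0.504 CPM, while CD3E reached 2.27 CPM in PAAD. Of 3 stroma markers, COL1A1 ranged from 7.61 CPM in COAD to 60.7 CPM in PRAD, COL3A1 reached 14.8 CPM in PRAD and PDGFRB 16.3 CPM in COAD.

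The stretches before the start sites are shown first, because promoters of late cell cycle genes often carry a CHR element and CCAAT boxes. The search took the 250 bases before each start (RefSeq, GRCh38.p14) and both strands, with TTTGAA or TTTAAA as the CHR element, CCAAT as the CCAAT box, and TTTCCCGC, TTTGGCGC, TTTCGCGC or TTTGCCGC as an E2F core. Promoters were given for 34 of the 42 kinesins, with several for some genes, and KIF5A, KIF13B, KIF19, KIF21B, KIF26B, KIF27, KIFC2 and KIFC3 had none. A CHR element stood in 7 of 15 mitotic promoters (46.7%), 2 of 16 transport promoters (12.5%), 0 of 12 other promoters and 21.9% of all 35116 promoters. A CCAAT box stood in 11 of 15 mitotic promoters (73.3%), 5 of 16 transport promoters (31.2%), 4 of 12 other promoters (33.3%) and 32% of all promoters. Both occurred together in 6 of 15 mitotic promoters (40%), 1 of 16 transport promoters (6.25%) and 7.64% of all promoters, whereas the E2F core was found in 1 mitotic promoter, that of KIF15, and 1 other, that of KIF25, against 2.79% of all. Among the 21507 promoters of protein-coding genes the shares were 18.4% for the CHR element, 33% for the CCAAT box, 6.82% for both and 3.48% for the E2F core. The following stretches, which end at the RefSeq start and hold no UTR base of GENCODE release 44, show KIF20A and KIF18B, whose calls in COAD held under every setting, KIF11 and KIF4A as mitotic kinesins with both elements, and KIF5B as a transport kinesin with both. Capitals mark the CHR element and the CCAAT boxes, read on either strand.
KIF20A, chr5:138178954-138179111, plus strand: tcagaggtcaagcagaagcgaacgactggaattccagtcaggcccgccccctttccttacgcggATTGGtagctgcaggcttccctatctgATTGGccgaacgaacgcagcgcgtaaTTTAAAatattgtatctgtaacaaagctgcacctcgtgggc
KIF11, chr10:92592880-92593129, plus strand: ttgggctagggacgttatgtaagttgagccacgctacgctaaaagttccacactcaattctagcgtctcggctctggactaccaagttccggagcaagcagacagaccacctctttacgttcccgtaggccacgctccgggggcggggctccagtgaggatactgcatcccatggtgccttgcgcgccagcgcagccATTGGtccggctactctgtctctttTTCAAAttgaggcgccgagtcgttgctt
KIF4A, chrX:70289946-70290103, plus strand: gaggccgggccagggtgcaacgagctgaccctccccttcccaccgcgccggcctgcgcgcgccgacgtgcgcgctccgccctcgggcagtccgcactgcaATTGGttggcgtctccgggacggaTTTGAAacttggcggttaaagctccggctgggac
KIF18B, chr17:44947774-44948023, minus strand: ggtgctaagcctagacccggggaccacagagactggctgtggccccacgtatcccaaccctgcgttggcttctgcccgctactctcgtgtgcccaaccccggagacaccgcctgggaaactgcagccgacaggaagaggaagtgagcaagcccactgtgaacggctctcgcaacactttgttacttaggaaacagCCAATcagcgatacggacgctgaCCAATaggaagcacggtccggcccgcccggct
KIF5B, chr10:32056426-32056675, minus strand: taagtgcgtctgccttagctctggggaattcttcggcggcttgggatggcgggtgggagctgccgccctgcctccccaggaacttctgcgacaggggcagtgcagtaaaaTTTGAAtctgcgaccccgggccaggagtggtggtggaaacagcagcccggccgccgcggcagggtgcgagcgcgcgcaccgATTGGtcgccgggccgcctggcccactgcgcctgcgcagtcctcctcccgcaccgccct

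In KIF20A the CHR element began at base -41 from the start and the CCAAT boxes at -94 and -67. KIF11 held its CHR element at -28 and its CCAAT box at -53, and KIF4A at -34 and -58. KIF18B had CCAAT boxes at -55 and -32 and no CHR element in this window. KIF5B had both as well, the CHR element at -140, farther upstream than in the 3 mitotic genes shown with one. The count table's gene spans begin elsewhere, so that all 158 bases shown for KIF20A lie inside the span counted for it, as do 14 bases for KIF4A and 6 for KIF5B. These matches describe letters and are not shown to be bound.

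Kinesins were expressed broadly, and the number with enough counts for testing was 33 of 42 for TNBC, 34 for PAAD, 37 for PRAD and 40 for COAD. KIF2B, a kinesin of kinetochore microtubules, had no count in any library, and KIF25 stayed below the filter in every line. Per kilobase of exonic length, KIF5B, the widely expressed heavy chain of conventional kinesin, had the highest level in the control libraries of each line, with 123 ± 7.7 CPM per kb for TNBC, 51.1 ± 1.25 for COAD, 45.7 ± 2.97 for PAAD and, in its own table, 58.2 ± 0.45 for PRAD (SD, n = 3). After it came KIF4A and KIF11 in COAD (40.9 ± 1.23 and 40.8 ± 0.703 CPM per kb), which did not differ beyond their spread. KIF1A, which carries synaptic vesicle precursors in neurons, had 5.68 ± 0.777 CPM in COAD controls, 0.144 ± 0.0219 CPM in PAAD and 0.0875 ± 0.0293 CPM in TNBC (SD, n = 3). In PRAD, normalized apart from the others, it had 280 ± 17.6 CPM.

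Most mitotic kinesins tested were downregulated by Ocoxin in COAD. Of the 13 tested, 8 were downregulated and none was upregulated at an adjusted p under 0.05 (edgeR quasi-likelihood test, Benjamini-Hochberg over all 17659 genes), against 1.09% of all genes downregulated and 1.47% upregulated. The 8 include KIF20A, which the study had selected from these same libraries. All 13 had a change below 0, between -0.39 and -0.09 on the log2 scale, with a median of -0.21 beside -0.01 for all genes tested. In 11 of the 13 every Ocoxin library lay below every control library, against 10.4% of all genes. The changes were small, the largest fold being 0.762 for KIF18B. In bulk RNA, fewer cells in mitosis and less RNA per cell cannot be told apart.

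KIF18B, which limits the length of astral microtubules, measured 112, 118 and 105 CPM in the COAD controls and 88.6, 88 and 78.2 CPM with Ocoxin. The groups did not overlap, and the log2 change was -0.39 ± 0.0589 (SE, adjusted p = 0.000711). KIF15, which helps KIF11 to keep the spindle bipolar, had 77.2, 82.2 and 82.2 CPM in controls against 66.8, 66.5 and 64.5 CPM, a change of -0.29 ± 0.0544 (adjusted p = 0.00577). Its 3 treated libraries lay close together and below all controls. KIF23, the motor of centralspindlin in the midzone of the dividing cell, had 118, 120 and 117 CPM in controls and 98, 102 and 99.8 CPM with Ocoxin, a change of -0.25 ± 0.0491 (adjusted p = 0.00834). KIF11, which slides antiparallel microtubules apart, had 197, 202 and 196 CPM against 161, 173 and 180 CPM, a change of -0.21 ± 0.0506 (adjusted p = 0.0264). Both sets of libraries were again separate. KIFC1, a minus end motor that clusters centrosomes and has 12.7% of its exonic bases under an antisense pseudogene, fell by 0.25 (adjusted p = 0.0418), KIF20B, a kinesin of cytokinesis, fell by 0.21 (adjusted p = 0.0257), and KIF2C, which depolymerizes microtubules at wrong attachments, fell by 0.19 on the log2 scale (adjusted p = 0.0409). The other 5 were not called: KIF14, KIF22 and KIF4A with adjusted p from 0.0654 to 0.0791, KIF18A at -0.09 (adjusted p = 0.463) and KIF4B at -0.25 (adjusted p = 0.426). KIF4B is a near-identical copy of KIF4A at a low level, so its reads are uncertain.

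The COAD calls differed in how far they rested on single libraries. KIF18B and KIF20A were called in all 14 alternative settings. Only 2 kinesins were called without control replicate 2 or without Ocoxin replicate 2, and 3 without control replicate 1, whereas 11 mitotic kinesins had an unadjusted p under 0.05 and a change below 0 in each of these 3 fits, as in the fit of all libraries.

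**Figure D1:**
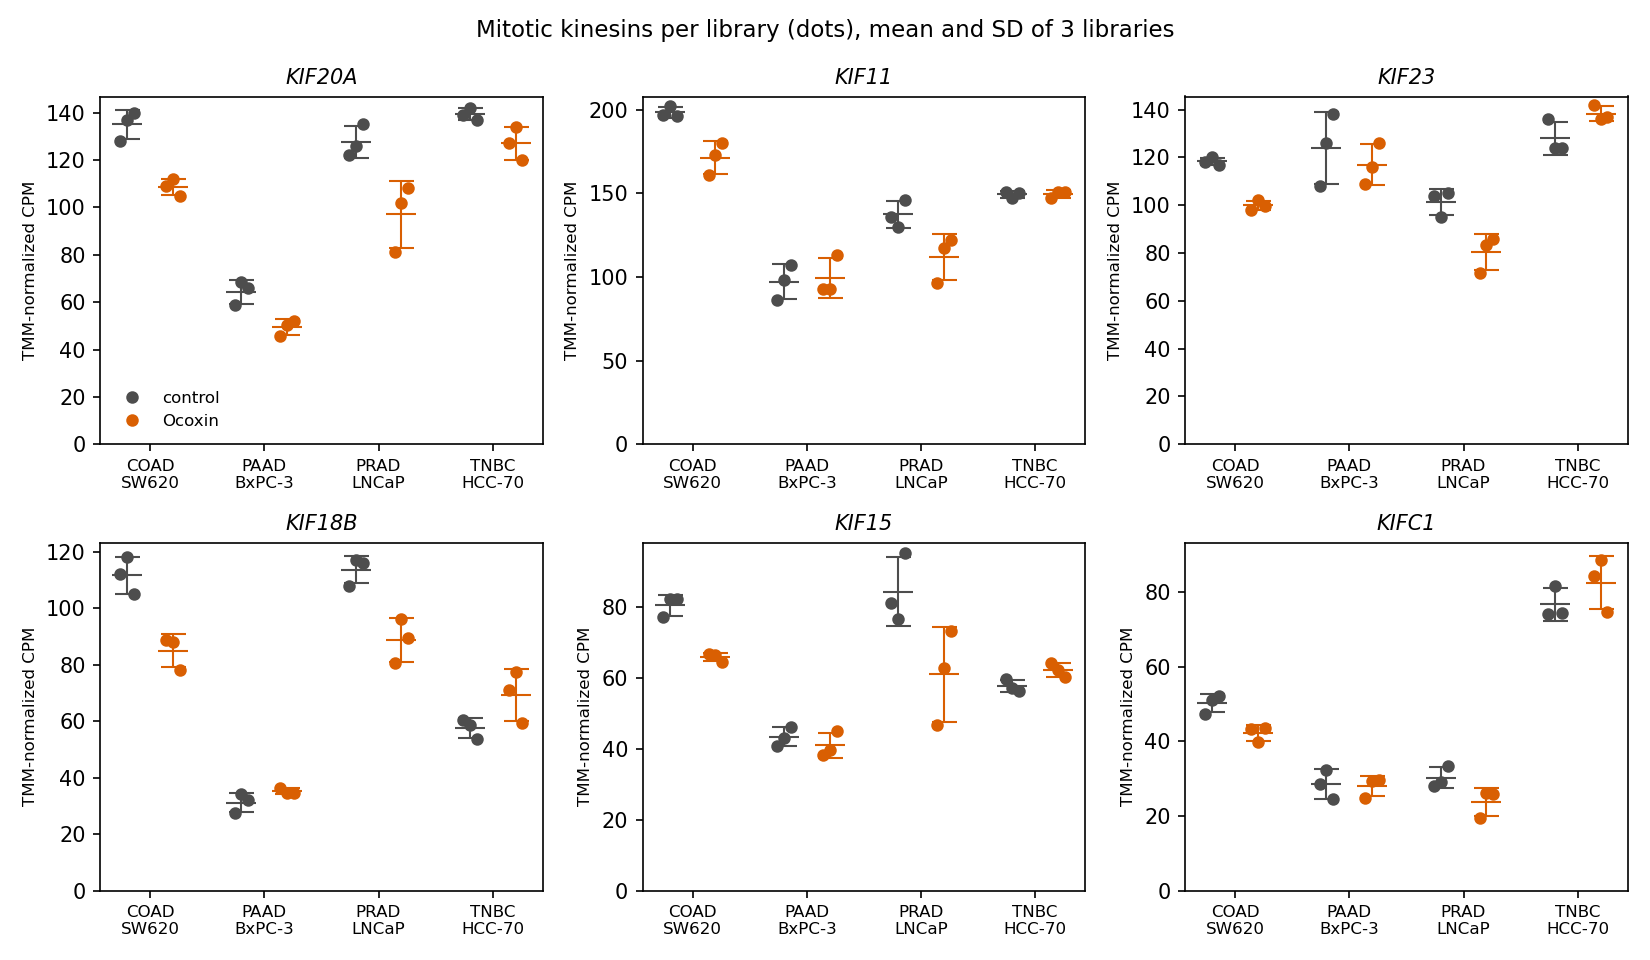
TMM-normalized CPM of 6 mitotic kinesins in each library, on a linear axis from 0. Gray dots are control and orange dots Ocoxin libraries, and bars give the mean and SD of 3 libraries. In COAD the 3 Ocoxin dots lie below the 3 control dots in every panel, and KIF20A is the only gene of the 6 with that separation in all lines.

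KIF20A was lower in every Ocoxin library than in every control library of its line, in all 4 lines, and passed the test in COAD and PAAD. It brings the chromosomal passenger complex to the central spindle for cytokinesis and lies on chromosome 5 from 138178719 to 138187715 (hg38, plus strand). The study had selected it from these same libraries for a further assay, so its direction here is no independent evidence. In COAD it had 128, 137 and 140 CPM in controls and 109, 112 and 105 CPM with Ocoxin, a log2 change of -0.31 ± 0.052 (adjusted p = 0.00226). In PAAD it had 58.8, 68.5 and 65.8 CPM against 45.9, 50.4 and 52.1 CPM, a change of -0.38 ± 0.073 (adjusted p = 0.0045). Both calls held in each alternative run. In PRAD the controls had 122, 126 and 135 CPM and the Ocoxin libraries 81, 102 and 108 CPM, a change of -0.40 ± 0.0986 that was not called (adjusted p = 0.0777). In TNBC 139, 142 and 137 CPM stood against 127, 134 and 120 CPM, a change of -0.13 ± 0.0455 that was not called either (adjusted p = 0.0526). Same-numbered libraries correlated over 0.1 for every number in TNBC alone, although replicate 1 correlated slightly more with another number (0.134) than with its own (0.127). With the replicate block KIF20A was called lower there (-0.14, adjusted p = 0.00138, range over alternatives 0.00138 to 0.152). DESeq2 called it lower in PRAD (adjusted p = 0.00825, range over alternatives 8.06e-05 to 0.19). BRD8 and CDC23 cover 5.05% of its exonic bases from the opposite strand, and the counting did not use the strand.

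In PRAD the mitotic kinesins had changes below 0 without passing the test for most genes. All 13 tested lay between -0.47 and -0.19 with a median of -0.30, beside 0.01 for all genes, and 11 of 13 did not overlap between groups, against 12.4% of all genes with every Ocoxin library below the controls. Only KIF18B was downregulated (0.58% of all genes were), with 108, 117 and 116 CPM in controls and 80.7, 96 and 89.5 CPM with Ocoxin, a change of -0.35 ± 0.0681 (adjusted p = 0.0407). At an unadjusted p under 0.05, 10 of 13 were lower, against 8.03% of all genes. KIF15 had 81.2, 76.6 and 95.3 CPM in controls and 46.8, 62.9 and 73.3 CPM with Ocoxin, a change of -0.47 ± 0.153 (adjusted p = 0.142). KIF23 had 104, 95.1 and 105 CPM against 71.7, 83.5 and 85.7 CPM, a change of -0.34 ± 0.0754 (adjusted p = 0.0596), and KIF11 had 136, 130 and 146 CPM against 96.4, 117 and 122 CPM, a change of -0.30 ± 0.0864 (adjusted p = 0.107). Ocoxin replicate 1 was the lowest library for all 4 of these genes and KIF20A, and without it the median was -0.21. The call of KIF18B was lost when any 1 library was left out (adjusted p from 0.0601 to 0.117). DESeq2 called 6 kinesins lower in PRAD, all mitotic, and none higher, against 0.955% of all genes lower and 2.65% higher. The replicate block called 6 mitotic kinesins lower, and 11 with trend removal added. The PRAD libraries were not taken as paired, and no share of all genes is given for these 2 fits. Their counts are therefore not results about kinesins alone.

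No common shift of the mitotic kinesins was seen in PAAD and TNBC. In PAAD the median of the 13 was 0.01, beside 0.00 for all genes, and KIF20A was the 1 mitotic kinesin downregulated, against 3.62% of all genes. KIF11 in PAAD had 86.4, 98.2 and 107 CPM in controls and 92.5, 92.8 and 113 CPM with Ocoxin, a change of 0.04 ± 0.0854 (adjusted p = 0.85). KIF23 had 108, 126 and 138 CPM against 109, 116 and 126 CPM, a change of -0.08 ± 0.0801 (adjusted p = 0.594). For both genes the groups overlapped widely. In TNBC the median was 0.05, beside 0.01 for all genes, 4 of 13 changes lay below 0, and none was downregulated while 11.3% of all genes were. KIF14, which works with citron kinase in cytokinesis, was upregulated in TNBC, where 9.65% of all genes rose, with 90.1, 82.6 and 82.7 CPM in controls and 102, 100 and 88.3 CPM with Ocoxin, a change of 0.18 ± 0.0584 (adjusted p = 0.0416). Its lowest Ocoxin library lay under the highest control, and the call was lost in 5 of 14 alternatives, with trend removal and without control replicate 2, control replicate 3, Ocoxin replicate 1 or Ocoxin replicate 2. KIF11 in TNBC had 151, 147 and 150 CPM against 147, 151 and 151 CPM, a change of 0.00 ± 0.0368 (adjusted p = 0.959), and KIF23 had 136, 124 and 124 CPM against 142, 136 and 137 CPM, a change of 0.11 ± 0.0447 (adjusted p = 0.0947). With the replicate block in TNBC, KIF14, KIF18B (0.26), KIF23 (0.11) and KIFC1 were called higher and KIF20A lower, where 16.3% of all genes were higher and 17.6% lower.

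**Figure D2:**
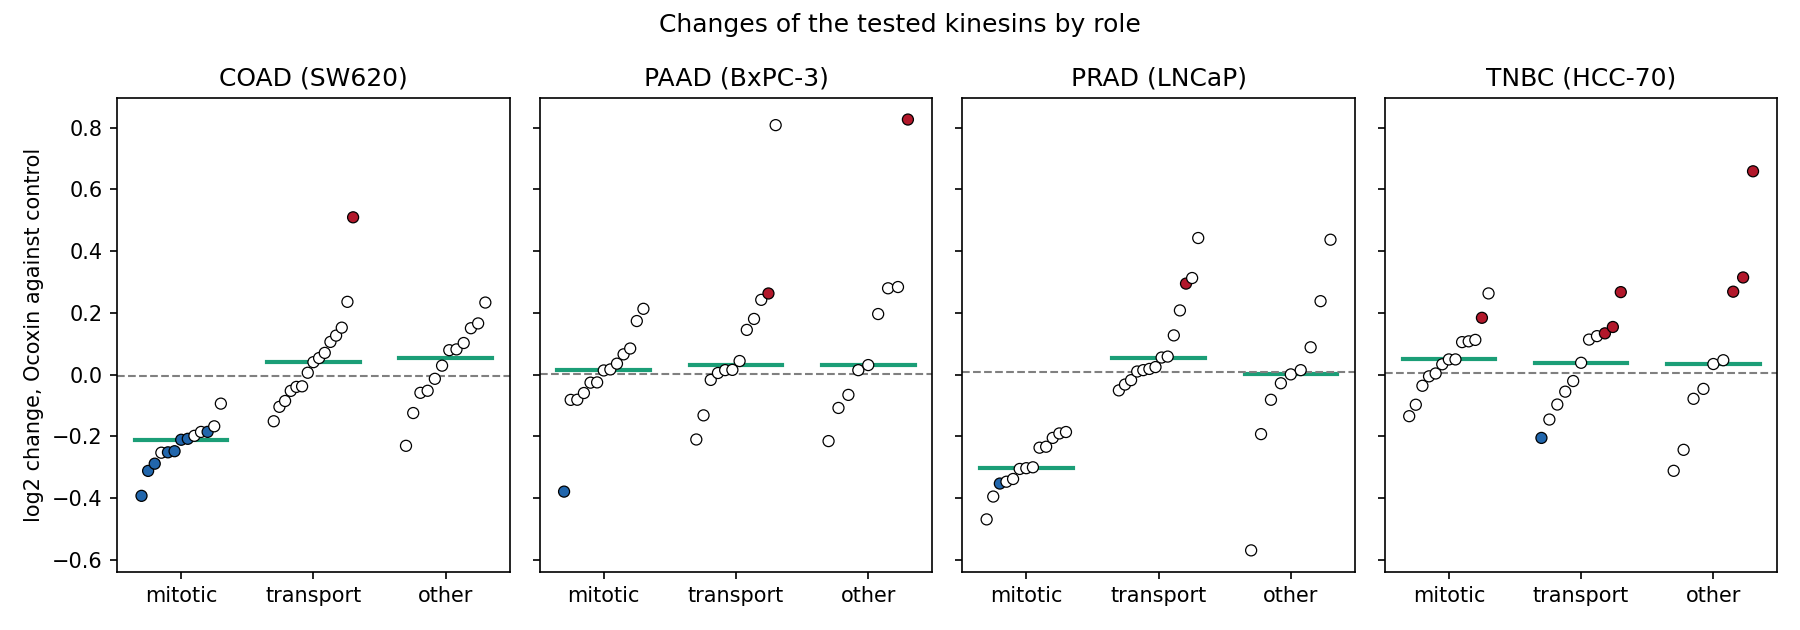
Log2 change of each tested kinesin with Ocoxin by role in the 4 lines. Filled blue and red points were called lower and higher, white points were not called, green bars are list medians and the dashed line is the median of all genes. KIF5A in PRAD, at 2.11 and not called, lies beyond the axis. In COAD and PRAD all mitotic points lie below 0 while the transport medians are 0.04 and 0.06.

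The transport kinesins did not follow the mitotic ones. In COAD 6 of 15 transport kinesins had a change below 0 (median 0.04) and 1 was upregulated, against 1.47% of all genes. In PRAD 3 of 15 were below 0 (median 0.06) and 1 was upregulated, against 2.4% of all genes. Summed over the mitotic list, the COAD controls had 1470, 1540 and 1510 CPM and the Ocoxin libraries 1280, 1300 and 1280 CPM, whereas the summed transport kinesins had 1280, 1280 and 1260 CPM against 1270, 1280 and 1230 CPM. The mitotic sums did not overlap between groups and the transport sums did. In PRAD the mitotic sums were 1220, 1200 and 1290 CPM in controls and 873, 1060 and 1090 CPM with Ocoxin, and the transport sums 1970, 2010 and 1920 against 2020, 2000 and 2000 CPM. The mitotic sums were separate there too, with Ocoxin replicate 1 the lowest. In PAAD and TNBC the mitotic sums of both groups overlapped, from 764 to 885 CPM in controls and 788 to 883 CPM with Ocoxin in PAAD, and from 1320 to 1390 CPM and 1330 to 1450 CPM in TNBC.

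**Figure D3:**
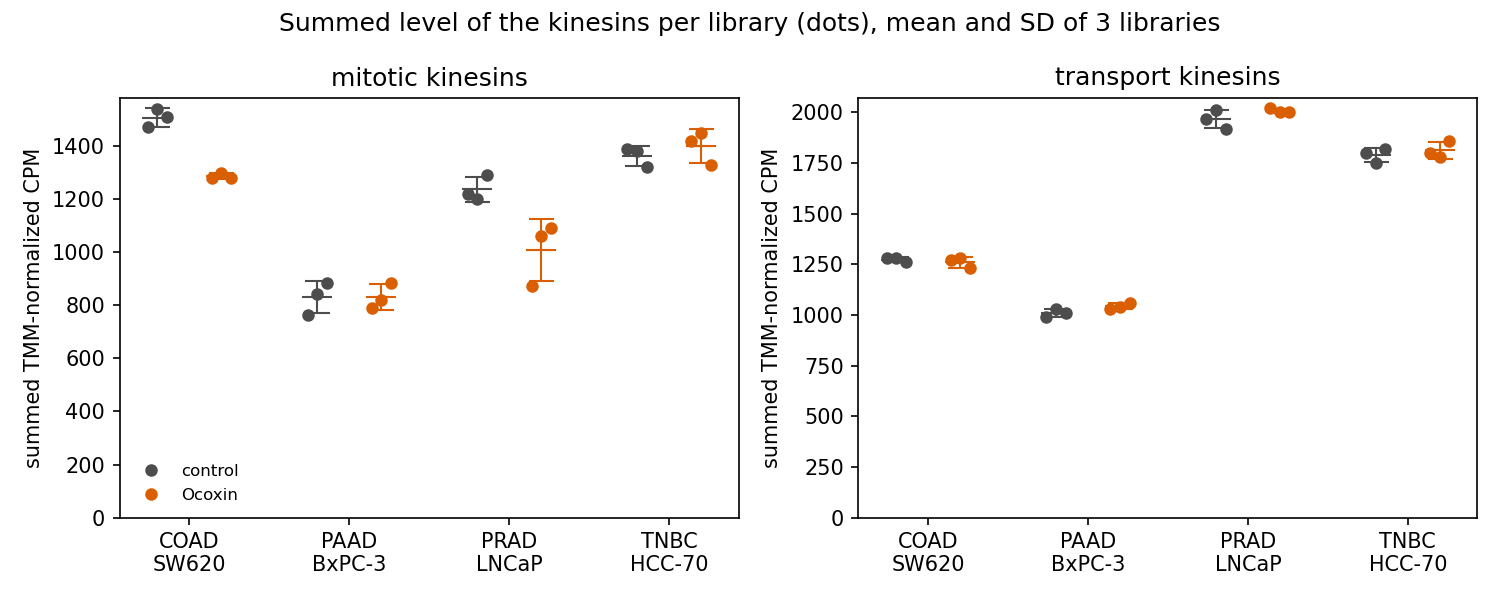
Sum of TMM-normalized CPM over the 14 mitotic (left) and 15 transport kinesins (right) per library, on axes from 0. Gray is control, orange Ocoxin, and bars give the mean and SD of 3 libraries. The mitotic sums of the Ocoxin libraries lie below the controls in COAD (1280 to 1300 against 1470 to 1540 CPM) and PRAD (873 to 1090 against 1200 to 1290 CPM).

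KIF5B, the most abundant kinesin per length, was not called in any line, and its change was -0.09 ± 0.0453 for COAD, -0.02 ± 0.0604 for PAAD, -0.02 ± 0.0314 for PRAD and 0.04 ± 0.0615 for TNBC. The single transport kinesin altered in COAD was KIF1A, with 4.86, 5.78 and 6.4 CPM in controls and 8.47, 8.58 and 7.21 CPM with Ocoxin, a change of 0.51 ± 0.133 (adjusted p = 0.0432). Its groups were separate at a low level, and the call was lost in 4 of 14 alternatives, each of which left out a library. In PRAD, where KIF1A is abundant, it had 271, 300 and 268 CPM against 276, 285 and 284 CPM, a change of 0.01 ± 0.0478 (adjusted p = 0.934). In PRAD the altered one was KIF3C, a partner of KIF3A in kinesin-2, with 35.3, 36.4 and 35.1 CPM against 42, 44 and 45 CPM, a change of 0.29 ± 0.06 (adjusted p = 0.0464). The groups were separate, but the call was lost with DESeq2 (adjusted p = 0.14, range over alternatives 0.00209 to 0.188), without the filter on low counts and without any 1 library. KIF5A, a heavy chain typical of neurons, had 0.872, 0.744 and 0.328 CPM in PRAD controls and 5.56, 1.39 and 1.55 CPM with Ocoxin and was not called (adjusted p = 0.141).

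In PAAD 1 transport kinesin, KIF13B, was upregulated, while 4.72% of all genes rose. KIF13B moves vesicles to the leading edge and the cell membrane, and it had 57.8, 64.2 and 63 CPM in controls and 73.7, 72.6 and 75.6 CPM with Ocoxin, a change of 0.26 ± 0.0623 (adjusted p = 0.0157). All treated libraries exceeded the controls, and the call was lost without control replicate 1, Ocoxin replicate 1 or Ocoxin replicate 2. Transcripts on the opposite strand cover 7.78% of its exonic bases. In the other lines KIF13B was not called, with changes from -0.04 to 0.02.

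TNBC had 4 of its 11 tested transport kinesins altered, 3 upregulated and 1 downregulated, against 9.65% of all genes upregulated and 11.3% downregulated. KIF3A and KIF3B, which pair in the kinesin-2 motor of intraflagellar transport, had 13.2, 13.5 and 12.3 CPM against 14.8, 14.8 and 17.4 CPM (0.27 ± 0.0883, adjusted p = 0.0479) and 144, 132 and 144 CPM against 151, 154 and 157 CPM (0.13 ± 0.0435, adjusted p = 0.0452). KIF1B, a motor of mitochondria and synaptic vesicle precursors, had 180, 173 and 196 CPM against 205, 201 and 205 CPM, a change of 0.15 ± 0.045 (adjusted p = 0.0281). Controls and Ocoxin libraries were separate for each of these genes, but the calls were not firm. Those of KIF3A and KIF3B were each lost in 7 of 14 alternatives, with trend removal and without any 1 library. That of KIF1B was lost in 6, without control replicate 1, control replicate 2, Ocoxin replicate 1 or Ocoxin replicate 2 and in both fits with trend removal, and its change was 0.04 (adjusted p = 0.535, range over alternatives 8.5e-05 to 0.535) once a trend with transcript length and GC content was removed, and with 17720 exonic bases KIF1B is the longest kinesin here. KIFC3, a minus end motor found at adherens junctions, was downregulated, with 55.3, 55.6 and 53.1 CPM in controls and 47.7, 45.3 and 49.3 CPM with Ocoxin, a change of -0.21 ± 0.0511 (adjusted p = 0.0134). Antisense transcripts cover 5.6% of its exonic bases, and the call was lost without control replicate 1, control replicate 2 or Ocoxin replicate 2. With the replicate block 15 kinesins were altered in TNBC, 4 lower and 11 higher, in place of 8, while the block also raised the shares of all genes to 17.6% lower and 16.3% higher. All 8 of the first fit were among them.

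Among the other kinesins, KIF21B was upregulated in PAAD and TNBC, with the largest change of all called kinesins. It slows microtubule growth, is best known from neurons and immune cells, and lies on chromosome 1 from 200969390 to 201023700 (hg38, minus strand). In PAAD it had 13.8, 14.9 and 14.7 CPM in controls and 25.9, 26.2 and 24.9 CPM with Ocoxin, a fold of 1.77 (log2 0.83 ± 0.0808, adjusted p = 1.1e-05). In TNBC it had 43.4, 38.8 and 42.7 CPM against 68.7, 66.8 and 61.8 CPM, a fold of 1.58 (log2 0.66 ± 0.059, adjusted p = 1.89e-05). In both lines the groups were far apart and the call held in all 14 alternatives. In COAD 29.8, 31.5 and 25.6 CPM stood against 34.9, 30.9 and 30.5 CPM (0.15 ± 0.0809, adjusted p = 0.382), and in PRAD 8.83, 8.93 and 6.01 CPM against 4.81, 6.22 and 4.98 CPM (-0.57 ± 0.196, adjusted p = 0.155). The groups overlapped in these lines.

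KIF24, which holds back cilium formation at the mother centriole, was upregulated in TNBC, with 66, 63.9 and 62.9 CPM in controls and 77.9, 77.8 and 76.4 CPM with Ocoxin, a change of 0.27 ± 0.0437 (adjusted p = 0.00115). This call held in all 14 alternatives. In PAAD it was not called at 0.28 ± 0.0915 (adjusted p = 0.0697), but 6 of 14 alternatives called it higher there, DESeq2 among them (range over alternatives 0.00503 to 0.277). It was not called in COAD at -0.23 ± 0.0873 (adjusted p = 0.182) or in PRAD at -0.19 ± 0.146 (adjusted p = 0.505). KIF27, a relative of the Hedgehog pathway kinesin KIF7, was upregulated in TNBC at a low level, with 8.31, 7.56 and 8.29 CPM against 10.4, 8.85 and 10.8 CPM (0.31 ± 0.104, adjusted p = 0.0475). Antisense transcripts cover 13.1% of its exonic bases, and the call was lost in 6 of 14 alternatives. No other kinesin of this list was called in any line, KIF2A, a depolymerase of microtubule ends, and KIF7 among them.

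**Figure D4:**
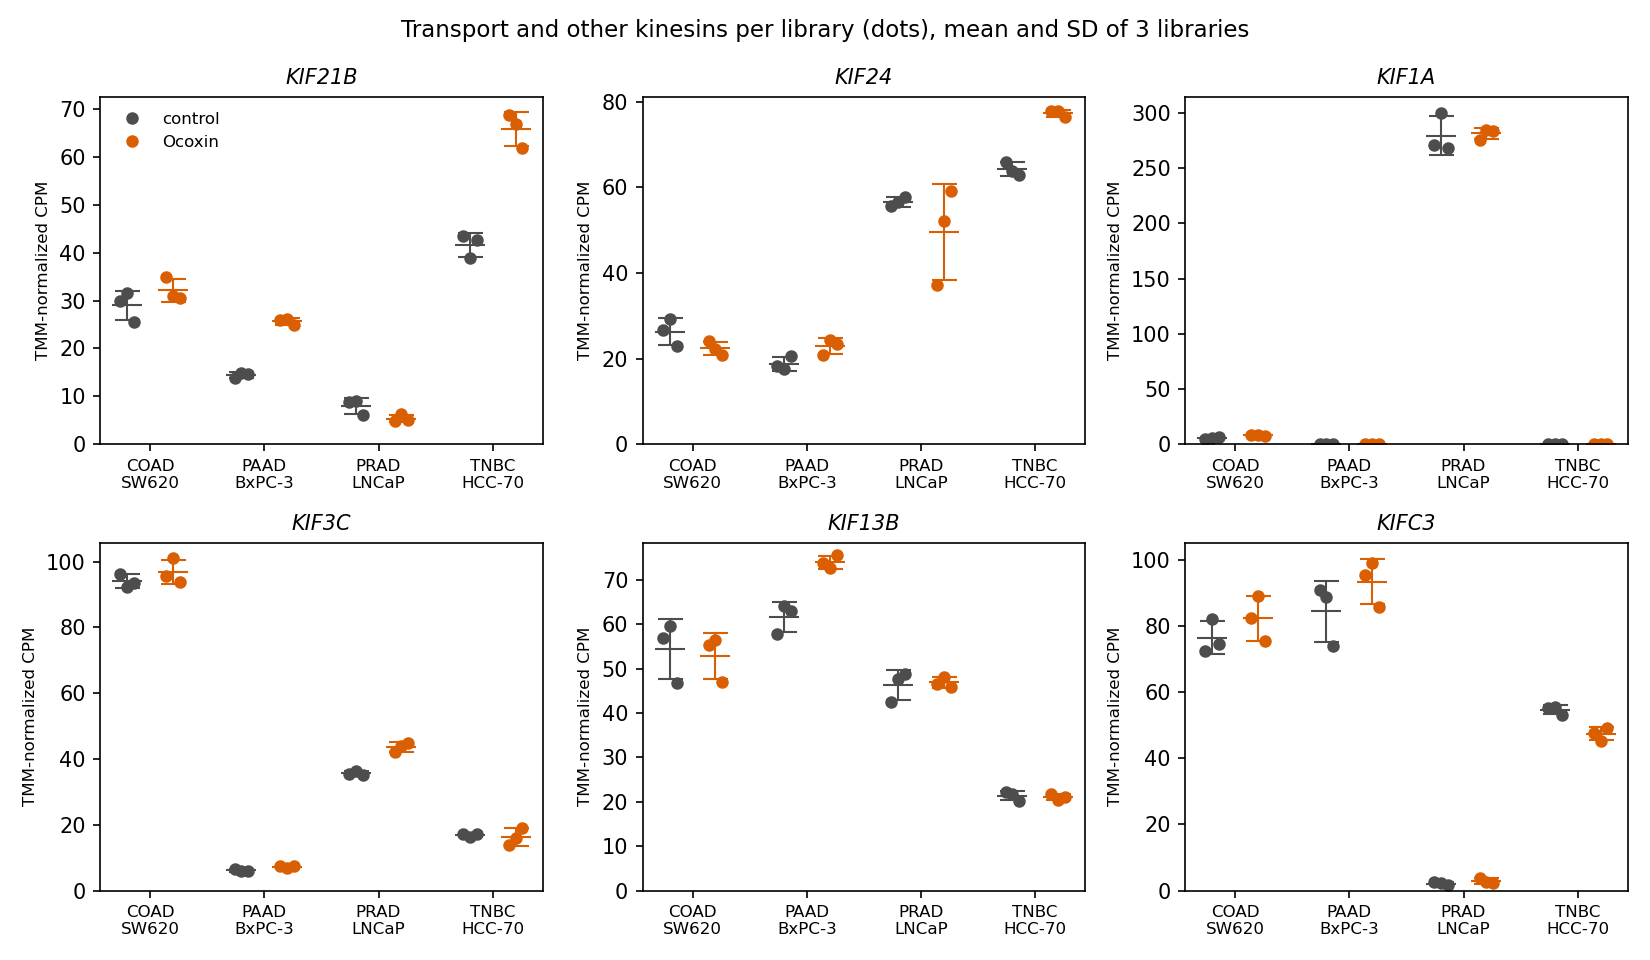
TMM-normalized CPM of KIF21B, KIF24, KIF1A, KIF3C, KIF13B and KIFC3 per library, on linear axes from 0 (gray control, orange Ocoxin, bars mean and SD of 3 libraries). For KIF21B the Ocoxin libraries lie between 24.9 and 26.2 CPM in PAAD, above controls of 13.8 to 14.9 CPM, and between 61.8 and 68.7 CPM in TNBC, above controls of 38.8 to 43.4 CPM.

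COAD and TNBC received the same dilution, so their responses were compared directly by the interaction of cell line and Ocoxin in a fit of their 12 libraries. Of 40 kinesins, 12 differed, against 10.5% of all 20163 genes, 11 with the lower response in COAD and 1 with the lower response in TNBC. The 40 include KIF1A, KIF5A, KIF5C, KIF6, KIF17, KIF19 and KIF26B, which were below the filter in TNBC, where 33 kinesins were tested. None of these was called, so 12 of 40 is not a share of kinesins expressed in both lines. The 20163 genes were filtered in the same way. Among the 13 mitotic kinesins 7 differed, all lower in COAD, and the median difference was -0.23 beside 0.01 for all genes. KIF18B differed by -0.64 ± 0.112 (adjusted p = 0.00139), KIF23 by -0.35 ± 0.0648 (adjusted p = 0.00136) and KIF15 by -0.38 ± 0.0718 (adjusted p = 0.00143). For these genes the change was below 0 in COAD and above 0 in TNBC. The rise in TNBC was not called for any of them in the first edgeR fit of that line. There the adjusted p was 0.0739 for KIF18B, 0.0947 for KIF23 and 0.138 for KIF15. Some alternatives did call it. KIF18B was called higher in TNBC with DESeq2, without the filter, with the block, with trend removal, with both, and without Ocoxin replicate 3. KIF23 was called higher with the block, with and without trend removal, and without control replicate 1. KIF20A differed by -0.16 and did not pass the interaction test (unadjusted p = 0.0281, adjusted p = 0.145). Its 95% interval ran from -0.32 to -0.00321. The intervals here rest on 8 residual degrees of freedom, not on the distribution of the test. They are not adjusted over genes, so they can leave out 0 for a gene that is not called. With the replicate block, which also pairs the COAD libraries, KIF20A was called lower in COAD (adjusted p = 0.0335, range over alternatives 0.0102 to 0.315). KIF18A differed by 0.02 with an interval from -0.24 to 0.28. Of the transport kinesins KIF1B, KIF3B and KIFC3 differed, and of the others KIF21B and KIF24.

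**Figure D5:**
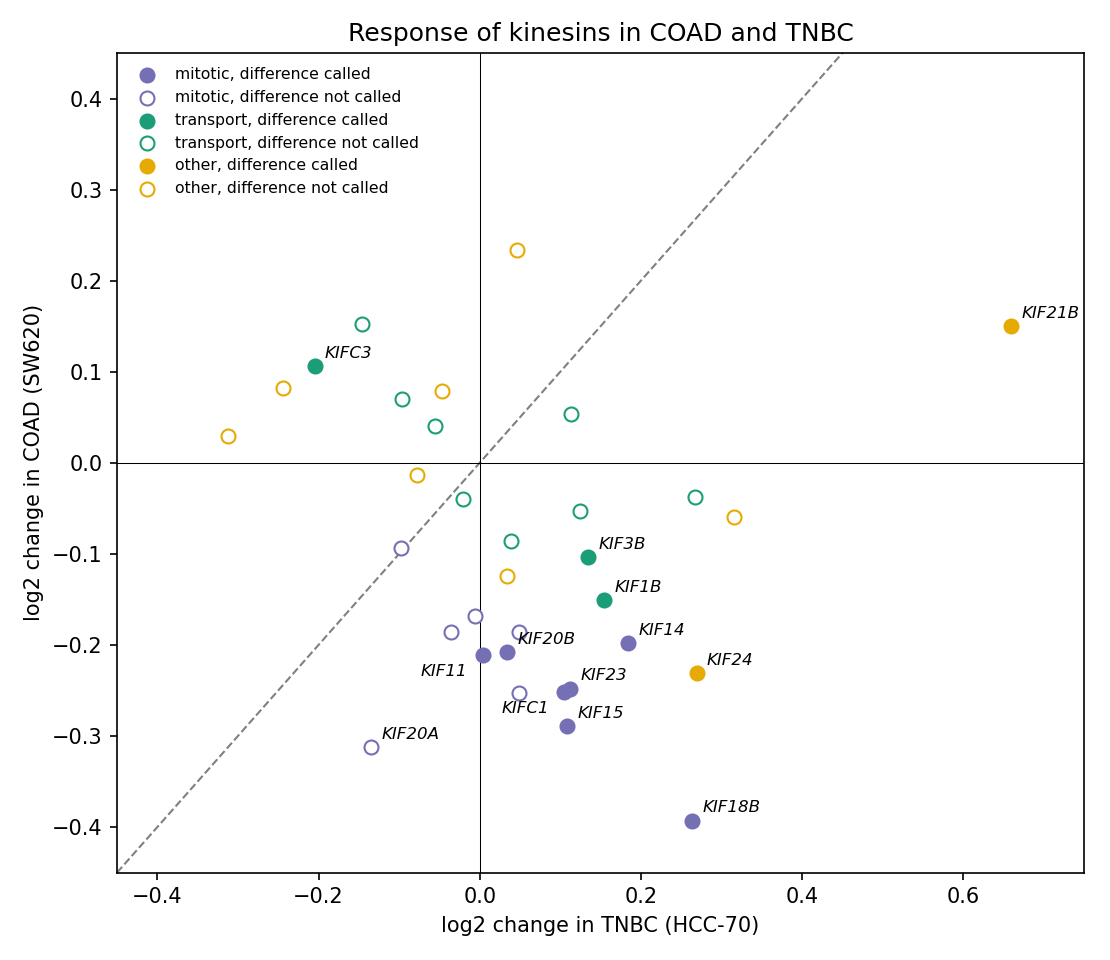
Log2 change with Ocoxin in TNBC (horizontal) against COAD (vertical) for the kinesins tested in both lines, colored by role, with filled points where the difference of the responses was called. The dashed line marks equal change. The mitotic kinesins lie below 0 in COAD, and KIF20A (-0.13 and -0.31) is below 0 in both.

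The proteins that work with the mitotic kinesins were read from a list of 16 genes. In COAD 9 of 16 were downregulated and none upregulated, with a median of -0.22 beside -0.01 for all genes and 1.09% of all genes downregulated. They included PLK1, the kinase that docks on KIF20A at the midzone, with 153, 163 and 166 CPM in controls and 129, 133 and 128 CPM with Ocoxin (-0.31 ± 0.0499, adjusted p = 0.00187), and ANLN, the anillin of the cleavage furrow, with 257, 257 and 254 CPM against 207, 216 and 213 CPM (-0.27 ± 0.0457, adjusted p = 0.00247). INCENP, a subunit of the chromosomal passenger complex, fell by 0.22 in COAD (adjusted p = 0.0485) and rose by 0.32 in TNBC (adjusted p = 0.000851). In PAAD (median -0.01) 1 partner was called, CIT at 0.30, and in TNBC (median -0.00) 2 were, INCENP and HMMR, the latter at -0.18. These single calls stand beside 4.72% of all genes higher in PAAD, and 9.65% higher and 11.3% lower in TNBC. In PRAD all 16 partners lay below 0 with a median of -0.26, and 1 was called, CDCA8 at -0.35 (adjusted p = 0.0257), against 0.58% of all genes lower. CENPE and STARD9, kinesins whose symbols fall outside the rule, were not called in any line.

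Light chains and cargo adaptors of the transport kinesins numbered 19, with 3 upregulated in TNBC, 1 each in PAAD and PRAD, and none altered in COAD. Of all genes 9.65%, 4.72% and 2.4% were upregulated in these 3 lines, and in COAD 1.09% were downregulated and 1.47% upregulated. The medians of the light chains and adaptors were 0.06 for TNBC, 0.05 for PAAD, 0.01 for PRAD and -0.03 for COAD. BORCS5, which recruits kinesin to lysosomes, rose in TNBC from 13.6, 12.4 and 13.5 CPM to 17, 16.9 and 17.9 CPM (0.39 ± 0.0761, adjusted p = 0.00338). PLEKHM2, which links kinesin-1 to lysosomes, was upregulated in both PAAD (0.22, adjusted p = 0.0478) and TNBC (0.14, adjusted p = 0.0292), and KIDINS220, a neurotrophin receptor scaffold carried by kinesin-1, in TNBC (0.14, adjusted p = 0.027). Of the 25 genes of cytoplasmic dynein and dynactin, the motor for the opposite direction, none was altered in COAD or PRAD, 3 of 24 tested were downregulated in PAAD, and 5 of 23 tested were downregulated and 3 upregulated in TNBC. Of all genes 3.62% were downregulated in PAAD, and 11.3% were downregulated and 9.65% upregulated in TNBC. In COAD 1.09% of all genes were downregulated and 1.47% upregulated, and in PRAD 0.58% and 2.4%. At such shares, no call among 25 genes is not a result about these genes. The medians of the dynein and dynactin genes lay between -0.07 in PAAD and 0.02 in COAD. The dynein light chain DYNLL1 fell by 0.26 in PAAD (adjusted p = 0.00691) and by 0.27 in TNBC (adjusted p = 0.00024), DYNLT1 fell by 0.23 in TNBC (adjusted p = 0.00223), and ACTR10 of dynactin fell by 0.39 in PAAD (adjusted p = 0.00295).

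The genes with the pattern most like KIF20A were sought among 13341 genes tested in all 4 lines, by the distance between their 4 log2 changes. The 5 nearest were YWHAZP4 (0.122), CDCA7 (0.153), MTHFD1P1 (0.159), SUB1P3 (0.172) and PARD6G (0.172). YWHAZP4, MTHFD1P1 and SUB1P3 are pseudogenes whose reads are hard to tell from those of their parent genes. CDCA7 changed by -0.23 on the log2 scale for COAD, by -0.35 for PAAD, by -0.31 for PRAD and by -0.05 for TNBC. No kinesin was among the 5.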

How the data were processed

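RNA was measured in 24 libraries, grouped by the letters C and O in the library titles. The authors used fastp for trimming, STAR for alignment to hg38 and picard to drop duplicates, and counted primary alignments on exons with featureCounts 2.0.3. The deposited values are whole counts, unnormalized, in separate tables for PRAD and for the other lines. Neither run used the strand, and reads on several genes were left out.

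Counts were fitted per cell line in R 4.3.3 with edgeR 4.0.16: filterByExpr, TMM, a robust quasi-likelihood F-test (two-sided) and Benjamini-Hochberg adjustment over all genes, with an adjusted p under 0.05 and no minimum fold called altered. COAD and TNBC were also fitted together for the interaction. Members and gene lists were chosen with earlier results of these data known. Named were all called kinesins, KIF20A, KIF11, KIF23, and up to 3 genes per partner list. Other kinesins and CIT, HMMR and CDCA8 were added after their values were seen. Symbols came from GENCODE release 44 (56948 of 58051 identifiers matched), lengths from the count tables. SE is the log2 change divided by the root of F.

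Alternatives were DESeq2 1.42.0, its size factors, no filter, at least 10 counts in every library, counts halved, removal of a trend with length and GC content (spline, 5 df), the replicate block with and without that removal, and leaving out each library. The fits were also run on simulated counts with known changes, which were larger than most kinesin changes called here. Those runs do not show how well changes of the reported size are found. Numbers were taken to pair libraries where each same-numbered pair correlated over 0.1 in its deviations from the group means. This held in TNBC (0.127, 0.12 and 0.358, with up to 0.134 between other numbers) but not in COAD (lowest 0.0123), PAAD (0.0726) or PRAD (0.0997). PRAD fell just short, although each of its libraries correlated best with its own number.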

Additional observations from a re-analysis of the deposited data

Results flagged for a closer look

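The response to Ocoxin differed between COAD and TNBC for 12 of 40 kinesins in the interaction test of edgeR (adjusted p under 0.05). Of all 20163 genes, 10.5% were called in that test. The differences of the 12 kinesins, COAD minus TNBC on the log2 scale, were marked for that reason. The 40 include kinesins below the filter in TNBC, where 33 were tested. Mitotic kinesins differed by -0.641 (KIF18B), -0.383 (KIF15), -0.368 (KIF14), -0.347 (KIF23), -0.343 (KIFC1), -0.228 (KIF20B) and -0.201 (KIF11). The changes behind KIF14 were -0.20 in COAD, where it was not called, and 0.18 in TNBC, where it was. Among the transport kinesins KIF1B differed by -0.292, KIF3B by -0.225 and KIFC3 by 0.325, the last being the 1 gene with the lower response in TNBC. Of the other kinesins, KIF21B differed by -0.494 and KIF24 by -0.485. Cell line, tissue and genotype cannot be told apart in this comparison of 1 line with 1 other.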

How the results depend on the processing

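The medians of the mitotic kinesins stayed within the spread between libraries under every alternative, except in COAD without Ocoxin replicate 3. In COAD the range without 1 library was from -0.238 to -0.193, against -0.21. The spread was taken from the same libraries of each line, so it is wider where 1 library lies apart. Leaving out 1 of these libraries can seldom move the median beyond it, so staying within it in those runs is no sign of firmness. In PRAD it includes Ocoxin replicate 1, without which the median was -0.21 against -0.30. Staying within the spread therefore does not show that the PRAD median is firmer than that of COAD. Counts of altered kinesins moved more, and so did the shares of all genes where these were read. The block in TNBC called 17.6% of all genes lower and 16.3% higher, against 11.3% and 9.65% in the first fit. DESeq2 in PRAD called 0.955% lower and 2.65% higher, against 0.58% and 2.4%. For the other settings no share of all genes is given, so the counts below are not results about kinesins alone. In COAD 9 became 15 with the replicate block, with or without trend removal, and 2 to 9 when 1 library was left out. In PAAD 3 became 8 with the block, 6 with trend removal, 7 with both, and 2 to 6 without 1 library (6 without control replicate 3). In PRAD 2 became 6 with DESeq2 (6 lower, 0 higher), 6 without the filter (5 lower, 1 higher), 9 with the block (6 lower, 3 higher), 5 with trend removal (4 lower, 1 higher), 16 with both (12 lower, 4 higher), and 0 without any 1 library by edgeR, where 12 to 17 kinesins kept an unadjusted p under 0.05. In TNBC 8 became 15 with the block, 5 with trend removal, and 2 to 7 without 1 library (2 after control 2 was dropped, 3 after Ocoxin 1, and 4 after control 1, control 3 or Ocoxin 2). Of 12 kinesins differing between COAD and TNBC, 7 to 11 did so without 1 library (7 after COAD control 2, COAD Ocoxin 2, TNBC control 2 or TNBC Ocoxin 2 was dropped), and 18 with the block. Changes of uncalled KIF11 turned sign in PAAD (from -0.0669 to 0.104 without 1 library) and in TNBC (-0.000501 without the filter, -0.00124 with trend removal, -0.00133 with both, -0.00728 to 0.0169 without 1 library). In COAD, PAAD and PRAD the libraries share only a number. Each correlated best with its own number in PAAD and PRAD, but not in COAD, nor in TNBC, where every same-numbered pair passed 0.1. The cause of these shifts was not tested. With 3 libraries per group and changes under 0.5 on the log2 scale for most members, calls near the threshold are not firm.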
